A study of Mus musculus with 7 samples.

Results

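The genes described here are 10 named genes of MHC class II antigen presentation and of dendritic cell precursors, out of 25033 gene symbols counted in lineage depleted (lin-) mouse bone marrow. They were taken by name: *Cd74*, *H2-Aa*, *H2-Ab1*, *H2-Eb1*, *H2-DMa*, *H2-DMb1*, *Ciita*, *Siglech*, *Tcf4* and *Batf3*. RNA was sequenced from 3 wild type (WT, Hrp2+/+) and 4 knockout (KO, Hrp2-/-) mice aged 6 to 8 weeks, with 1 library per mouse and no treatment in either group. The strain was C57BL/6N, and the knockout mice carried the tm1b (KOMP)Wtsi allele of *Hdgfrp2*, listed in the files as *Hdgfl2*. This gene encodes HRP-2, a PWWP domain protein that reads methylated histone tails. The knockout was systemic and so was not limited to blood cells. The comparison addressed whether the loss of HRP-2 changed these genes in cells left after mature lineages are removed.

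MHC class II molecules are pairs of an alpha and a beta chain that show peptides from the endosome to CD4 T cells. The invariant chain, encoded by *Cd74*, guides new pairs to the endosome and blocks their groove, and the DM pair then exchanges its last fragment for a peptide. Transcription of these genes rests on the transactivator CIITA, which does not bind DNA itself but joins the RFX, CREB and NF-Y proteins on the X and Y boxes of class II promoters. In bone marrow, class II is carried mainly by B cells, dendritic cells and macrophages. Plasmacytoid dendritic cells are the interferon-producing cells marked by *Siglech* and specified by the E protein TCF4, whereas BATF3 is required for the cross-presenting conventional dendritic cells.

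The libraries held between 3525665 and 5605158 reads on genes, and 3 reads, taken as the floor of detection, corresponded to 0.535 to 0.851 CPM (reads per 1000000 reads on genes) before scaling. This floor covers counting error only. The ribosomal RNA precursor *Rn45s* took from 4.94% to 20.6% of the reads, with the highest share in WT replicate 2. *Hdgfl2* had 228, 156 and 168 reads in the WT mice and 13, 3, 8 and 2 in the KO mice (log2 fold change −5.09; edgeR quasi-likelihood, adjusted p = 1.38e-07). KO replicate 3 stood apart, with the Y-linked *Ddx3y* at 104 CPM and *Xist* at 0.559 CPM, where the remaining 6 mice had 228.5 to 302 CPM of *Xist*. No sex is given in the labels. The log2 fold changes of the 9 tested genes were also fitted without this mouse, but the lists, sums and ratios were not.

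None of the 10 genes passed the test between genotypes. Of these, 9 held enough reads to be tested among 11265 genes with edgeR's quasi-likelihood test, and *Ciita* did not. The threshold, an adjusted p of 0.25, was that of the study, which used DESeq2 and reported more genes than were found here. By the edgeR test 2 of all genes tested passed it, which is 0.0178%, and with DESeq2 19 did. None of the 9 genes reached even an unadjusted p of 0.05, which 409 of all genes did (3.63%), and none passed the threshold with DESeq2 or limma-voom. Among the 9 genes 5 were higher and 4 lower in KO mice, and over all genes 50.2% were lower. The median log2 fold change (KO minus WT) of the 9 genes was 0.0045, and that of all genes tested was −0.0014. The plot of levels by mouse shows that the genotypes overlapped for 9 of the 10 genes, *H2-DMb1* being the exception. Over all genes tested the genotypes did not overlap for 5.17%.

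**Figure D1:**
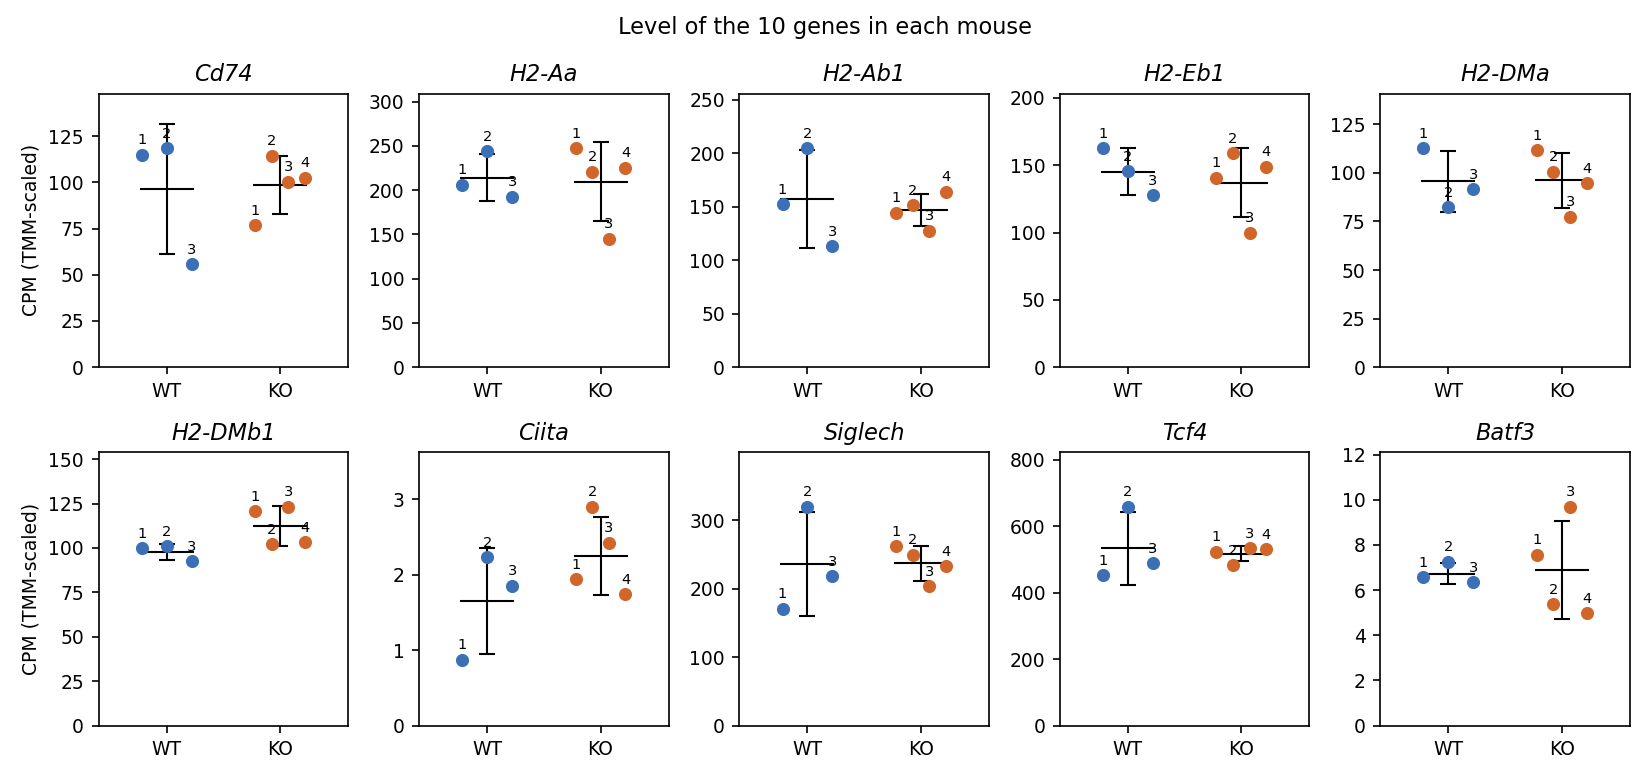
Level of each of the 10 genes (TMM-scaled CPM, linear axis from 0) in 3 WT (blue) and 4 KO (orange) mice; points are mice with their replicate number, and black bars are the mean ± SD. The genotypes overlap in every panel but that of H2-DMb1, where KO mice lie at 102 to 123 CPM and WT mice at 92.5 to 100.9 CPM.

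*Cd74*, the invariant chain, stood at 115, 118 and 55.7 CPM in WT replicates 1 to 3. In KO replicates 1 to 4 it stood at 77.0, 114, 100.3 and 103 CPM. WT replicate 3 was the lowest of the 7 mice and KO replicate 1 the next, and the other 5 lay close together, so that the genotypes overlapped widely. The log2 fold change was 0.032 (standard error 0.23, 95% interval −0.45 to 0.51; edgeR quasi-likelihood, adjusted p = 0.999). Without WT replicate 3 the log2 fold change was −0.24, and without KO replicate 2 it was −0.048, so the direction rested on single mice. An exon of *Cd74* also holds the small RNA gene *Mir5107* on the same strand.

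*H2-Aa* and *H2-Ab1* encode the alpha and beta chains of I-A, the class II molecule that this strain displays. *H2-Aa* was measured at 206, 244 and 192 CPM in WT replicates 1 to 3 and at 247, 221, 145 and 225 CPM in KO replicates 1 to 4. KO replicate 3 was the lowest mouse, and the other 3 KO mice lay within or just above the WT range. The log2 fold change was −0.030 (standard error 0.17, 95% interval −0.38 to 0.32), and it was 0.11 without KO replicate 3 and 0.073 without WT replicate 2. *H2-Ab1* stood at 152, 204.5 and 113 CPM in WT mice and at 144, 151, 127 and 164 CPM in KO mice. All 4 KO values lay between the lowest and the highest WT value. Its log2 fold change was −0.095 (standard error 0.17, 95% interval −0.45 to 0.26), and 0.14 without WT replicate 2.

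*H2-Eb1* encodes the beta chain of I-E. Its alpha chain gene is not transcribed in mice of the b haplotype, to which C57BL/6 belongs, because its promoter is deleted. In the files that gene is listed as *H2-Ea-ps*, and it had 0 reads in each of the 7 mice, below the floor of 3 reads. *H2-Eb1* itself was read, at 163, 146 and 128 CPM in WT replicates 1 to 3 and at 141, 159, 99.9 and 149 CPM in KO replicates 1 to 4. KO replicate 3 was again the lowest of all mice, and the other 3 KO mice lay within the WT range. In the fit the log2 fold change was −0.086 (standard error 0.16, 95% interval −0.42 to 0.25), and it was 0.040 without KO replicate 3 and 0.011 without WT replicate 1. The summed level of *H2-Aa*, *H2-Ab1* and *H2-Eb1* was 516.1 ± 80.45 CPM (SD, n = 3) in WT and 493.5 ± 80.92 CPM (SD, n = 4) in KO mice, with the lowest sum, 372 CPM, in KO replicate 3.

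The DM chains form the peptide exchange factor of the endosome. *H2-DMa* stood at 113, 82.4 and 91.7 CPM in WT mice and at 112, 101, 77.5 and 94.7 CPM in KO mice. KO replicate 3 was the lowest and WT replicate 1 the highest, with a log2 fold change of 0.0064 (standard error 0.16, 95% interval −0.33 to 0.34). It was −0.089 without WT replicate 2 and also below 0 without WT replicate 3, KO replicate 1 or KO replicate 2. Exons of *H2-DMa* and of *Brd2*, on the opposite strand, overlap, and since the counted strand is not stated, reads there cannot be assigned with certainty.

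*H2-DMb1* stood at 99.8, 100.9 and 92.5 CPM in WT replicates 1 to 3. In KO replicates 1 to 4 it stood at 121, 102, 123 and 103 CPM. All 4 KO mice lay above all 3 WT mice, although KO replicate 2 and WT replicate 2 were close. The mean was 97.7 ± 4.55 CPM (SD, n = 3) in WT and 112 ± 11.1 CPM (SD, n = 4) in KO mice. The log2 fold change of 0.20 (standard error 0.14, 95% interval −0.090 to 0.49) did not pass the test (edgeR quasi-likelihood, adjusted p = 0.999). By exact permutation, two-sided and on log2(CPM + 1), p was 0.114, where the smallest p that 35 splits of 7 mice allow is 0.0286. *H2-DMb1* has a close paralog beside it, *H2-DMb2*. Of the 426 windows of 75 bases in the last 500 bases of its longest GENCODE transcript, 67 also occur in *H2-DMb2*, and none of the windows of the other 9 genes occurs in another gene. When the reads of both paralogs were summed, the levels were 117.1, 138.8 and 108.4 CPM in WT mice and 141.5, 122.5, 155.1 and 132 CPM in KO mice. The genotypes then overlapped, and the log2 fold change was 0.18 (standard error 0.14). *H2-DMb2* alone had a log2 fold change of 0.11.

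The ratio of reads between genes of a library does not depend on the scaling, and the genotypes overlapped in each of the ratios computed. Reads of *Cd74* per read of the I-A and I-E chains were 0.22, 0.199 and 0.128 in WT replicates 1 to 3 and 0.145, 0.215, 0.269 and 0.191 in KO replicates 1 to 4. For *H2-Ab1* per *H2-Aa* the ratio was 0.722 ± 0.126 (SD, n = 3) in WT and 0.718 ± 0.122 (SD, n = 4) in KO mice. For the DM chains per I-A and I-E chains it was 0.38 ± 0.0629 (SD, n = 3) in WT and 0.431 ± 0.0777 (SD, n = 4) in KO mice. KO replicate 3 had the highest value of all 3 ratios, and these are read ratios, not ratios of protein.

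The class II chain genes of the list lie together on chromosome 17 of GRCm38, the chromosome that also holds *Hdgfl2* at 56079634 to 56100607. *H2-DMa* spans 34119541 to 34139101, *H2-DMb1* 34153072 to 34160230, *H2-Ab1* 34257689 to 34269419, *H2-Aa* 34282744 to 34287823 and *H2-Eb1* 34305867 to 34316674. All 5 lie on the same side of *Hdgfl2*, about 21.8 Mb from it or slightly further, measured between the lower coordinates. Promoters of some of these genes are shown because the X and Y boxes are where CIITA is recruited. RefSeq promoters (GRCm38.p6, 250 bases before to 50 after the start) were matched by symbol for 6 of the 10 genes, *H2-Aa*, *H2-Eb1*, *H2-DMa*, *H2-DMb1*, *Siglech* and *Batf3*, while *Cd74*, *H2-Ab1*, *Ciita* and *Tcf4* had no entry. The sequences below are the 130 bases before the start, on the strand of the gene, taken from RefSeq starts, which can differ from the GENCODE positions above, for *H2-Aa* (chr17:34287824-34287953, minus strand), *H2-Eb1* (chr17:34305737-34305866, plus strand), *H2-DMb1* (chr17:34153061-34153190, plus strand) and, for comparison, *H2-DMb2* (chr17:34145119-34145248, plus strand). Capitals mark the Y box core GATTGG and the X box core ACNGATG where they are on the strand of the gene.
H2-Aa: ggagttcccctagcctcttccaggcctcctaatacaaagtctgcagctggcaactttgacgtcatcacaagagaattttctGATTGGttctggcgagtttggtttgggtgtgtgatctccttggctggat
H2-Eb1: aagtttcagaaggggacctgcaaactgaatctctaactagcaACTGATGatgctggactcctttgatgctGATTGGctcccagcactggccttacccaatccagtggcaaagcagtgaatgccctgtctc
H2-DMb1: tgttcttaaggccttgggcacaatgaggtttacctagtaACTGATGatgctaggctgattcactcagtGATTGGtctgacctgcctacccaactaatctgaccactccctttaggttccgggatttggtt
H2-DMb2: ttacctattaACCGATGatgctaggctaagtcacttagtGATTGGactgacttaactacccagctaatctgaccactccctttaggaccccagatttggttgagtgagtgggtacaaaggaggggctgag

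The first base of the Y box core lay 49 bases before the start in *H2-Aa*, 60 in *H2-Eb1*, 62 in *H2-DMb1* and 91 in *H2-DMb2*. The X box core lay 28 bases further upstream in *H2-Eb1* and 29 in *H2-DMb1* and *H2-DMb2*. The exact letters ACNGATG were not found on the gene's strand of *H2-Aa*. Among other class II genes the distance was 28 bases in *H2-Eb2* and 93 in *H2-Oa*, and *H2-Ob* matched GATTGG alone. Searched on both strands, GATTGG occurred in 16.1% of all 32851 promoters of this length and ACNGATG in 9.85%. Both occurred in 1.52%, counted on either strand and at any distance from each other. *H2-DMa* has 2 promoters in the table, of which the upstream one held neither core and the downstream one held GATTGG at 199 bases before the start. *Siglech* held an ACNGATG match and *Batf3* neither motif. A match describes letters and not binding, and a box with other letters would be missed, so a gene without a match may still hold one.

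*Ciita*, the transactivator, was barely read. It had 4, 8 and 7 reads in WT replicates 1 to 3 and 10, 14, 13 and 7 in KO replicates 1 to 4, all above the floor of 3 reads. In CPM this was 1.66 ± 0.702 (SD, n = 3) in WT and 2.25 ± 0.520 (SD, n = 4) in KO mice, and the genotypes overlapped (exact permutation, two-sided, p = 0.257). *Ciita* passed the filter in 5 of the 15 alternative fits, and in none of these did any of the 10 genes reach an unadjusted p of 0.05. The gene lies on chromosome 16 from 10480059 to 10528418, and its exons overlap those of *Dexi* on the opposite strand.

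*Siglech*, a surface receptor of plasmacytoid dendritic cells on chromosome 7 from 55768178 to 55778925, stood at 171, 319.9 and 219 CPM in WT replicates 1 to 3. In KO replicates 1 to 4 it stood at 262, 249.6, 204 and 233 CPM. WT mice held both the lowest and the highest value, with all 4 KO mice between them. The mean was 237 ± 76.0 CPM (SD, n = 3) in WT and 237 ± 25.1 CPM (SD, n = 4) in KO mice, a log2 fold change of 0.0045 (standard error 0.18, 95% interval −0.37 to 0.38). The estimate was below 0 without WT replicate 1, WT replicate 3, KO replicate 1 or KO replicate 2, and ranged from −0.18 to 0.28 over the 7 fits that each omit 1 mouse.

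*Tcf4* encodes the E protein that specifies plasmacytoid dendritic cells and is also expressed in progenitors. It was read at 453, 659 and 489.8 CPM in WT replicates 1 to 3 and at 523, 484, 535 and 531 CPM in KO replicates 1 to 4. The KO mice lay within 1 narrow band inside the WT range, and WT replicate 2 was the highest mouse. The log2 fold change was −0.042 (standard error 0.14, 95% interval −0.34 to 0.25), and 0.14 without WT replicate 2. Reads of *Tcf4* per read of *Id2*, its inhibitor, were 2.09 ± 0.275 (SD, n = 3) in WT and 2.18 ± 0.342 (SD, n = 4) in KO mice. *Tcf4* is on chromosome 18 from 69343356 to 69689079 and *Cd74* on the same chromosome from 60803848 to 60812652.

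*Batf3*, an AP-1 family factor on chromosome 1 from 191097847 to 191108945, had 20 to 52 reads per mouse. It stood at 6.57, 7.26 and 6.36 CPM in WT replicates 1 to 3 and at 7.56, 5.39, 9.69 and 4.97 CPM in KO replicates 1 to 4. KO mice held both the lowest and the highest value. Its log2 fold change was 0.045 (standard error 0.37, 95% interval −0.74 to 0.83), and −0.16 without KO replicate 3. With so few reads, changes up to 1.78-fold higher or to 0.600 of the WT level lay inside the interval.

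The intervals state how large a difference these 7 mice could have hidden. For the other 8 genes tested the 95% interval of the KO to WT ratio lay between 0.730 and 1.43, as the plot of differences shows. The widest of these was that of *Cd74*, from 0.731 to 1.43. That of *H2-DMb1* ran from 0.940 to 1.41.

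**Figure D2:**
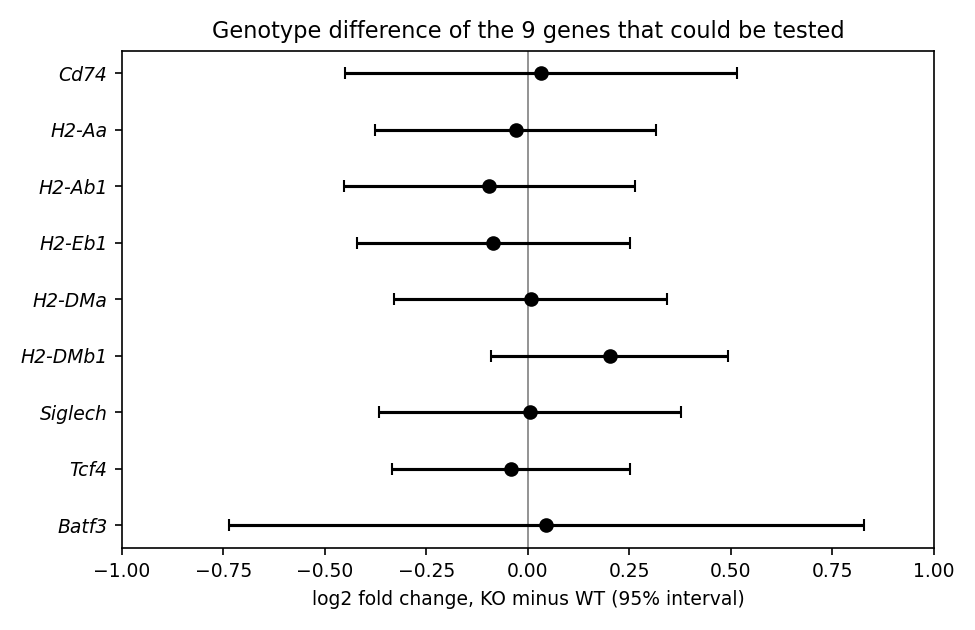
Log2 fold change (KO minus WT, horizontal axis) of the 9 genes that were tested, with 95% intervals from edgeR's quasi-likelihood fit. All intervals include 0, the largest estimate is 0.20 for H2-DMb1, and the widest interval is that of Batf3, from −0.74 to 0.83.

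The genes did not vary together across the mice as a block. WT replicate 2 was the highest of the 7 mice for *Cd74*, *H2-Ab1*, *Siglech* and *Tcf4*, and its *Rn45s* share was also the highest. The part of that share in these levels was not tested. KO replicate 3 was the lowest for *H2-Aa*, *H2-Eb1* and *H2-DMa* and the highest for *H2-DMb1* and *Batf3*. As a measure of likeness, the root mean square difference of mean-centred log2(CPM + 1) over the 7 mice was computed for the pairs of the 9 tested genes, without *Ciita*. Among these it was smallest for *H2-Aa* with *H2-Eb1*, at 0.146, and was 0.166 for *Siglech* with *Tcf4*. Among the same pairs it was largest for *Cd74* with *Batf3*, at 0.462.

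By the same measure, the genes outside the list whose pattern was most like that of *Cd74* were *Cyb561*, *Med29*, *Prickle1*, *Fam118a* and *Slc39a4*, at 0.0913 to 0.13. *Cd74* itself had an SD of 0.394 across mice on that scale. The genes most like *Siglech*, which had an SD of 0.285, were *Zfp143*, *Rnase6*, *Fads1*, *Cebpzos* and *Mrps26*, at 0.0732 to 0.119. *Rnase6*, for example, stood at 109.6, 195.6 and 150.3 CPM in WT replicates 1 to 3 and at 163, 154, 115 and 143 CPM in KO replicates 1 to 4, with WT replicate 1 lowest and WT replicate 2 highest as for *Siglech*. These are the closest of 11265 genes in 7 mice and are given as a description.

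The rest of the class II pathway was taken from a list of 23 symbols, of which 20 were in the files and 18 were tested. None passed the adjusted test, with 7 higher and 11 lower in KO mice and a median log2 fold change of −0.13. The levels did not overlap between genotypes for 3 genes, each lower in KO mice, where 5.17% of all genes tested did not overlap. *H2-Oa*, the alpha chain of the DM inhibitor DO, was at 10.5 ± 2.08 CPM (SD, n = 3) in WT and 6.68 ± 1.15 CPM (SD, n = 4) in KO mice. *Rfx5*, a subunit of the X box factor, was at 56.6 ± 3.12 CPM (SD, n = 3) in WT and 44.8 ± 6.26 CPM (SD, n = 4) in KO mice. *Cd86*, a costimulator displayed beside class II, was at 6.10 ± 1.01 CPM (SD, n = 3) in WT and 2.96 ± 1.27 CPM (SD, n = 4) in KO mice. By edgeR quasi-likelihood all 3 had an adjusted p of 0.999, and only *Cd86* had an unadjusted p (0.0477) under 0.05. Other subunits of the promoter complex had log2 fold changes of −0.31 for *Rfxap*, 0.080 for *Rfxank*, −0.10 for *Creb1*, −0.14 for *Nfya*, 0.045 for *Nfyb* and 0.11 for *Nfyc*.

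Interferon gamma induces *Ciita* through its receptor and JAK kinases. Of 8 genes of that axis, 3 were higher and 5 lower in KO mice and none passed the adjusted test, with a median log2 fold change of −0.10. *Irf1*, an interferon-induced factor that acts on the *Ciita* gene, stood at 253, 284 and 194 CPM in WT replicates 1 to 3 and at 211, 226, 233.5 and 221 CPM in KO replicates 1 to 4. All 4 KO values lay inside the WT range, and the log2 fold change was −0.13.

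Further dendritic markers are given as a description, and they do not test the label of dendritic precursor genes. Of 20 plasmacytoid dendritic genes, 18 were tested, with 10 higher and 8 lower in KO mice and a median log2 fold change of 0.052. *Irf8*, a factor of dendritic and monocyte progenitors, was at 1141 to 1573 CPM, the pre-dendritic marker *Ly6d* at 281 to 405 CPM and *Cox6a2* at 78.1 to 132 CPM. The chemokine receptor gene *Ccr9* was at 51.6 to 79.3 CPM, *Bst2* at 21.9 to 52.0 CPM and the RNA sensor gene *Tlr7* at 5.69 to 15.7 CPM. The 2 genes of the list that were not tested were *Tlr9*, with 13 reads in all mice together, and *Lag3*, with 5. *Irf7*, the master factor of interferon alpha induction, was at 25.6 ± 2.70 CPM (SD, n = 3) in WT and 17.3 ± 5.67 CPM (SD, n = 4) in KO mice (log2 fold change −0.57; edgeR quasi-likelihood, unadjusted p = 0.0399, adjusted p = 0.999). *Cd300c* was the 1 gene of this list without overlap, at 32.0 ± 4.93 CPM (SD, n = 3) in WT and 25.4 ± 2.88 CPM (SD, n = 4) in KO mice. It had the same adjusted p, and 5.17% of all genes tested did not overlap.

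Of 24 conventional dendritic genes 21 were tested, with 9 higher and 12 lower in KO mice, none past the test and none without overlap. The median log2 fold change was −0.077. *Clec9a* and *Xcr1*, which mark the cells that need BATF3, were at 8.20 to 21.6 CPM and 1.59 to 7.22 CPM. *Sirpa*, of the other conventional subset, had a log2 fold change of 0.19, and *Tlr3*, an RNA sensor of the BATF3-dependent subset, one of −0.71 with a standard error of 0.53. Among 7 tested E proteins and partners 1 was higher and 6 lower. *Id3*, an inhibitor of E proteins, was at 16.3 ± 5.86 CPM (SD, n = 3) in WT and 26.4 ± 9.58 CPM (SD, n = 4) in KO mice (log2 fold change 0.70; edgeR quasi-likelihood, unadjusted p = 0.0377, adjusted p = 0.999). *Tcf3* and *Tcf12*, the other E proteins, had log2 fold changes of −0.018 and −0.048.

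**Figure D3:**
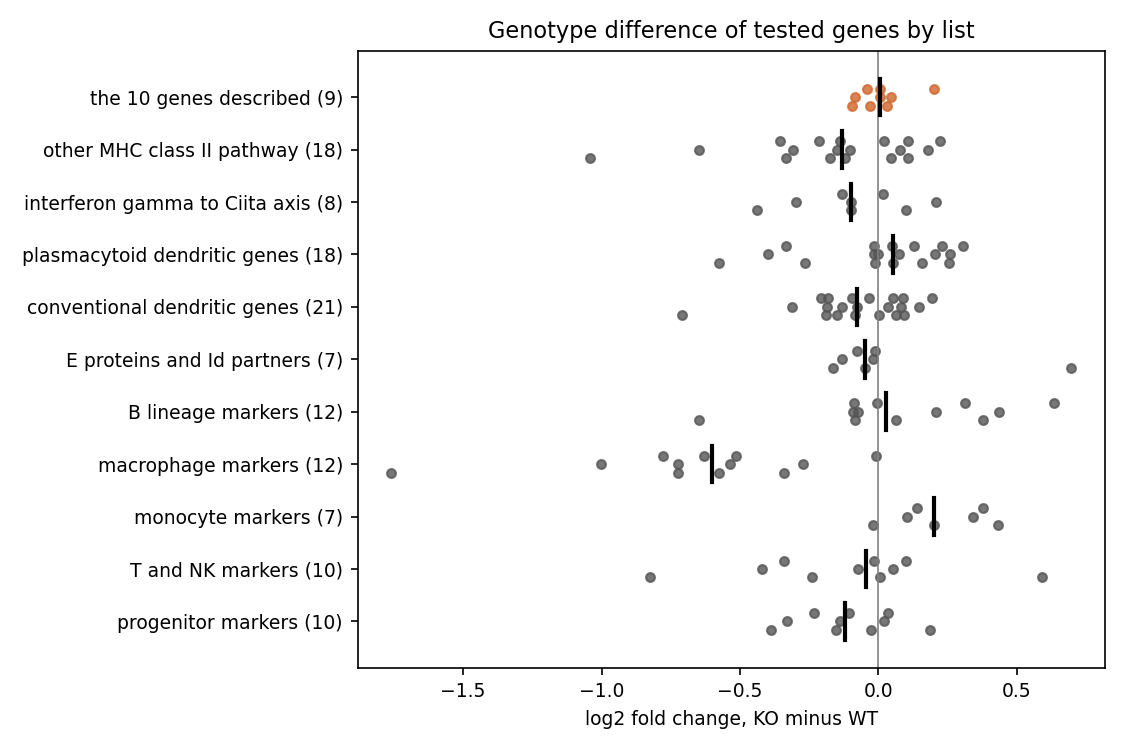
Log2 fold change (KO minus WT, horizontal axis) of every tested gene of 11 lists, 1 point per gene with the number of genes in brackets and a black bar at the median. The 9 tested genes described here (orange) centre on 0.0045, and the macrophage markers lie furthest to the left, with a median of −0.60.

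Other cells in the preparation also carry class II. The 12 B lineage markers found in the files summed to between 143 and 340 CPM in WT and between 162 and 512 CPM in KO mice, a 3.58-fold range over 7 mice, against 1.596-fold for the I-A and I-E chains. WT replicate 1 and KO replicate 3 were lowest in B lineage markers, and *Pax5* ranged from 7.88 CPM in WT replicate 1 to 101 CPM in KO replicate 4. None of the B lineage markers was at 0 in all mice, and 6 were higher and 6 lower in KO mice, with log2 fold changes of −0.65 for *Cd79a* and 0.38 for *Fcmr*. All 12 macrophage markers had a log2 fold change below 0, and their sum was 436 to 489.5 CPM in WT and 305 to 361 CPM in KO mice. The levels of 8 of them did not overlap, against 5.17% of all genes tested, and none passed the adjusted test, the smallest adjusted p by edgeR quasi-likelihood being 0.322 for the complement gene *C1qc*. Log2 fold changes were −1.001 for *C1qc*, −0.72 for *C1qa*, −0.54 for *C1qb*, −0.34 for *Vcam1*, −0.58 for *Cd5l*, −1.76 for *Spic*, −0.63 for *Mrc1*, −0.73 for *Axl* and −0.78 for *Mertk*. *H2-Oa*, *Rfx5* and *Cd86* were also lower in all 4 KO mice than in any WT mouse, and the part of macrophages or B cells in any of these levels was not tested. In bulk RNA fewer cells of a type and less RNA per cell cannot be told apart.

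**Figure D4:**
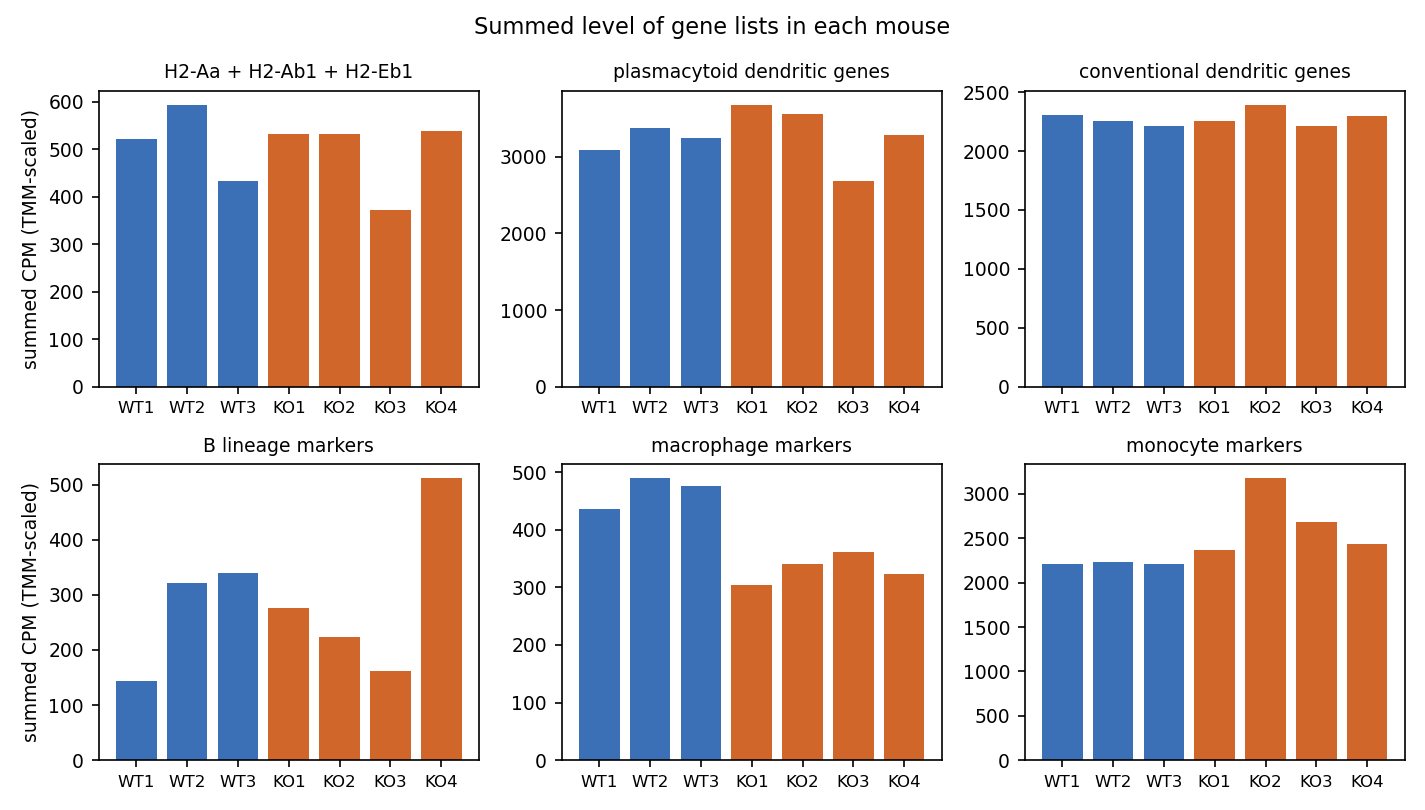
Summed CPM (TMM-scaled, linear axis from 0) in each of 3 WT (blue) and 4 KO (orange) mice for the I-A and I-E chain genes and 5 marker lists. The class II chains range from 372 to 594 CPM with the genotypes interleaved, B lineage markers range from 143 to 512 CPM, and macrophage markers are lower in all 4 KO mice.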

How the data were processed

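Lin- bone marrow RNA (500 ng) of 3 WT and 4 KO mice was made by the authors into 3′ end libraries that give 1 fragment per transcript, aligned to GRCm38 with STAR and counted on Ensembl genes, with STAR per the study's methods. The deposited values are read counts per gene symbol, not normalized, and 5 tally rows per file that name no gene were left out. Together these 5 rows held 29.4% to 33.6% of the reads in a file. Such rows are not the layout that STAR writes, so the counting program is uncertain. The counted strand is not stated in the sources used here. Counts were scaled with TMM factors, filtered with filterByExpr and compared with the quasi-likelihood test of edgeR 4.0.16 in R 4.3.3, adjusted over 11265 genes by Benjamini-Hochberg. CPM values use all reads on genes and the TMM factors. Intervals are 95% intervals of the fit. For single genes a two-sided exact permutation of log2(CPM + 1) over the mice was run. Levels are per transcript end and were not divided by length, so genes are not ranked against each other.

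Alternatives were DESeq2 1.42.0, limma 3.58.1 (voom), other scalings and filters, the replicate number as a block and the omission of each mouse, and, chosen after seeing the data, the summing of paralog reads. No 2 libraries of the same genotype agreed within sampling noise, and each was counted as 1 mouse. Named genes were the 10 genes, *Hdgfl2*, genes of each list without overlap between genotypes or with an unadjusted p-value under 0.05 (otherwise the 2 smallest), and the 5 genes most like *Cd74* and *Siglech*; the remaining genes named were chosen after their values were seen. The genes and lists were chosen with earlier results of these data known. Gene positions are those of GENCODE M21. The result of 1 gene that this rule names is not reported here.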

Additional observations from a re-analysis of the deposited data

Results flagged for a closer look

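The 4 KO mice were searched for a mouse far from the others in 35 genes, and 2 were set apart. By chance about 1 in 20 would be, which is 1.75 of 35. The macrophage gene *Cd5l* was at 15.3 CPM in KO replicate 1 against 23.9 to 25.1 CPM in the other 3 KO mice. The T cell gene *Cd8a* was at 15.4 CPM in KO replicate 4 against 22.3 to 23.2 CPM in the other 3. None of the 10 genes described stood out by this measure.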

How the results depend on the processing

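Of 136 values of log2 fold change of the 9 tested genes under other settings, 118 kept the direction reported and 18 did not, and none passed an adjusted p-value of 0.25. *H2-DMb1* kept its direction in all 16, from 0.15 to 0.24 with adjusted p-values of 0.949 to 0.9999. With limma-voom *H2-DMa* was at −0.00070. The other changes of direction came from leaving out 1 mouse. The range over these 7 fits was −0.24 to 0.20 for *Cd74*, −0.12 to 0.11 for *H2-Aa*, −0.28 to 0.14 for *H2-Ab1*, −0.17 to 0.040 for *H2-Eb1*, −0.089 to 0.15 for *H2-DMa*, −0.18 to 0.28 for *Siglech*, −0.14 to 0.14 for *Tcf4* and −0.16 to 0.17 for *Batf3*. The number of all genes under an adjusted p-value of 0.25 was 2. It was 19 with DESeq2, 41 without a filter on low counts, 1 with at least 10 reads in every mouse, and 2 to 7 when 1 mouse was left out, with 7 without WT replicate 1 and 4 without KO replicate 1. The cause was not tested. With the replicate block it was 1. Same-numbered mice did not deviate together (correlations −0.0249, −0.215 and −0.16, with a mean of 0.0446 for other pairs). The labels do not say what the replicate numbers stand for, and these few values cannot decide it. Depth limits *Ciita* and *Batf3* most.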

Other observations

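Marker lists of other cell types are given as values, and no test compared the lists. Of 7 tested monocyte markers 6 were higher and 1 lower in KO mice, and their sum was 2207 to 2229 CPM in WT and 2365 to 3178 CPM in KO mice, of which *Ly6c2* alone was 1229 ± 63.6 CPM (SD, n = 3) in WT and 1557 ± 300.8 CPM (SD, n = 4) in KO mice. *Cx3cr1*, a chemokine receptor shared by monocytes and dendritic precursors, did not overlap, at 137 ± 16.6 CPM (SD, n = 3) in WT and 178 ± 20.9 CPM (SD, n = 4) in KO mice, and *Ly6c2*, which overlapped, had a log2 fold change of 0.34. Neither passed the adjusted test (adjusted p = 0.999 for each from edgeR's quasi-likelihood test). Over all genes tested, the genotypes did not overlap for 5.17%, and 50.2% were lower in KO mice. Of 10 T and NK markers 4 were higher and 6 lower, with *Cd8a* at a log2 fold change of 0.59, and of 10 progenitor markers 3 were higher and 7 lower, with *Kit* at −0.23 and *Meis1* at −0.33, none past the adjusted test.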
